A study of Mus musculus with 6 samples.

Results

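Passage of a cell from G1 into DNA synthesis is set by 4 gene families. Their transcripts were compared here between fractions of mouse marrow cells labelled as stem cells. The families are the Cip/Kip inhibitors (Cdkn1a, Cdkn1b and Cdkn1c), the INK4 inhibitors Cdkn2c and Cdkn2d, the D cyclins (Ccnd1, Ccnd2 and Ccnd3) and the kinases Cdk4 and Cdk6. The 10 genes were taken by symbol from a deposited table of 55487 genes, and each symbol matched 1 row. All 10 were among the 15419 genes that passed the filter on low counts. The cells, from bone marrow, carried the label of long-term haematopoietic stem cells (LT-HSCs), and every mouse was of an Mmrn1-GFP genotype, with no wild-type group. Mmrn1 codes for multimerin 1, known from platelets and endothelium, and GFP is green fluorescent protein. The groups were Mmrn1-low (3 libraries) and Mmrn1-high (3 libraries). No age, treatment, strain or sorting gate for either group is given in the sources used here, nor whether replicates came from separate mice. The p-values therefore reflect only how far these libraries scatter, which may be technical.

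D cyclins bind Cdk4 or Cdk6, and the complexes phosphorylate the retinoblastoma family of pocket proteins, which releases the E2F factors that switch on genes of DNA synthesis. INK4 proteins bind Cdk4 and Cdk6 and keep the D cyclins off. Cip/Kip proteins bind whole cyclin and kinase complexes, block cyclin E and A complexes with Cdk2, and can help D cyclin complexes assemble. Stem cells of adult marrow rest outside the cycle for most of their life, and loss of Cdkn1c or of Cdk6 alters their rest and exit from it.

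The libraries held 11595104 to 30909990 counts in genes. Levels are given as CPM (each count as a share of its library) over library totals scaled by TMM factors, which correct for composition, and as the authors' FPKM, which is per gene length and so allows genes to be compared. Fold changes are log2, Mmrn1-high minus Mmrn1-low, with a standard error (SE), from edgeR's quasi-likelihood test, and calls were made where the p adjusted by Benjamini-Hochberg over all genes tested was under 0.05. Mmrn1 itself rose from 5.69 ± 0.112 to 10.0 ± 1.33 CPM (SD, n = 3). Of 10 LT-HSC markers, 9 were higher in Mmrn1-high cells, and Hoxb5 was not called. The 4 genes that gates for LT-HSCs commonly exclude or keep low (Cd48, Flt3, Cd34 and Il7r) were present in both groups, with a summed level of 588.9 to 612.7 CPM in Mmrn1-low and 1520 to 1551 CPM in Mmrn1-high libraries. Granulocyte progenitor genes (8 of 8 lower in Mmrn1-high, summed level 23340 to 24600 against 3458 to 3531 CPM), tissue macrophage genes (8 of 8 lower, 154.6 to 158.4 against 22.4 to 23.5 CPM), lymphoid progenitor genes (6 of 6 higher, 105.7 to 114.2 against 569.5 to 587.0 CPM) and proliferation genes (10 of 10 lower, 3073 to 3102 against 1453 to 1515 CPM) moved with the groups. Mature neutrophil genes (8 of 8 higher, 2710 to 2835 against 4456 to 4738 CPM) and the 3 tested of 6 T and NK cell genes (Lck, Gzmb and Klrb1c, all higher, 13.1 to 14.8 against 44.3 to 47.6 CPM for the list) did too. Of 8 erythroid genes, Car2 and Hbb-bt were higher and Klf1, Car1, Hba-a1 and Tfrc lower (814.9 to 844.5 against 589.7 to 598.0 CPM), and of 5 tested plasma cell genes Sdc1 was higher and Xbp1 and Mzb1 lower (284.8 to 412.1 against 104.3 to 146.6 CPM). No gene of these lists was at 0 in either group. Their part in the differences described next was not tested, and fewer cells of a type cannot be told apart from less RNA per cell in such bulk samples.

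Of the 10 genes, 4 rose in Mmrn1-high cells: all 3 Cip/Kip inhibitors and the cyclin Ccnd1. None fell, and the INK4 inhibitors, Ccnd2, Ccnd3, Cdk4 and Cdk6 did not pass the test. Over all genes tested, 61.2% were called, 30.7% higher and 30.5% lower, so a count of 4 in 10 is near the general rate and says nothing particular about these genes. The median log2 fold change of the 10 was 0.02, against 0.01 over all genes tested. Their median absolute change was 0.22, against 0.37 over all genes tested. The 10 genes thus fell into a set with changes of 0.99 to 1.64 and a set of 5 within 0.05 of no change, with Ccnd3 apart at −0.40 and a wide error. Cdkn1a, Cdkn1c and Ccnd1 were called with a log2 change of at least 1, as were 11.3% of all genes tested in that direction. For 5 of the 10 genes the libraries separated by group without overlap, as they did for 67.8% of all genes tested. Directions are relative to the TMM scaling. With library totals alone, log2 changes moved up by a median of 0.15, the split of calls over all genes went from 50.2% higher and 49.8% lower to 66.0% and 34.0%, and 7 of the 10 genes were called higher, against 40.2% of all genes. The 3 added calls were Ccnd2 (0.18), Cdk4 (0.15) and Cdk6 (0.13), whose changes were close to that shift.

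**Figure D1:**
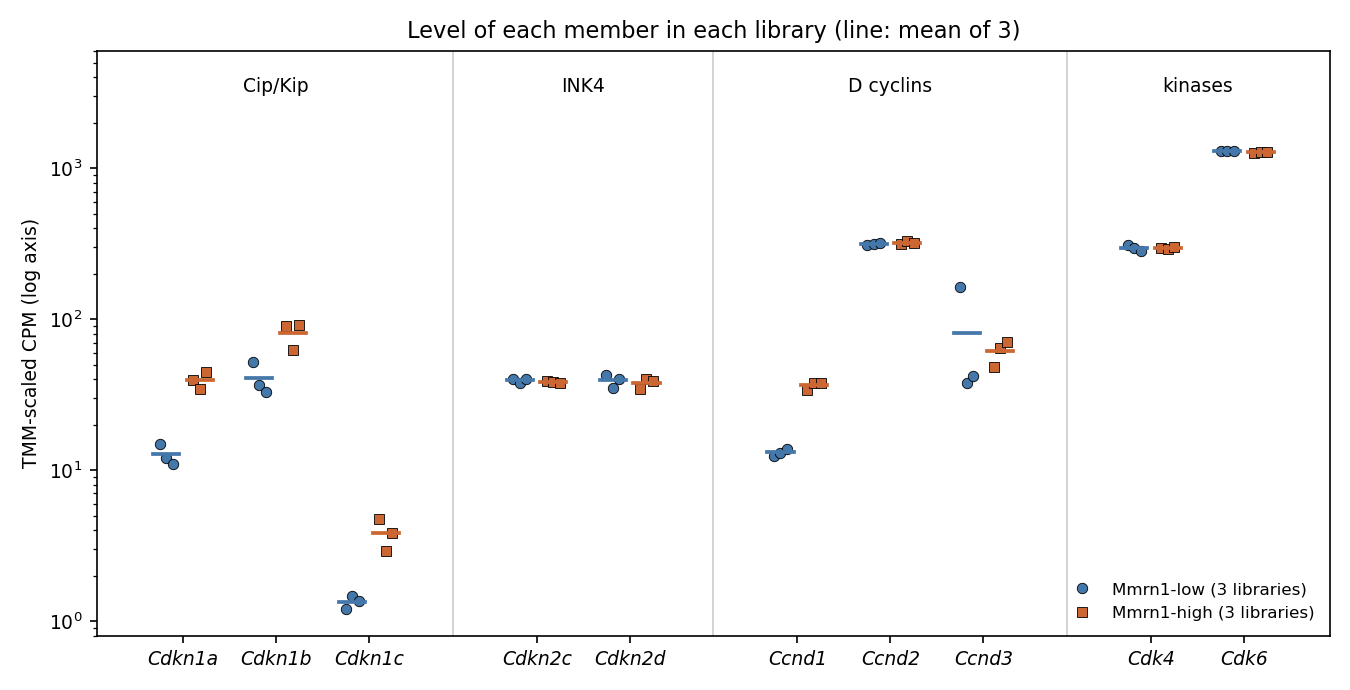
TMM-scaled CPM (vertical log axis) of each of the 10 genes in each of 6 libraries, with circles for Mmrn1-low, squares for Mmrn1-high and a line at the mean of 3 libraries. The Cip/Kip genes and Ccnd1 separate by group, while 1 Mmrn1-low library stands apart for Ccnd3 at 162.8 CPM.

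Cdkn1a encodes p21, the inhibitor that p53 induces after DNA damage. It lies on chromosome 17 from 29090976 to 29100727 (GRCm38, plus strand). In Mmrn1-low replicates 1 to 3 it was at 15.0, 12.1 and 11.04 CPM, and in Mmrn1-high replicates 1 to 3 at 39.6, 34.7 and 44.5 CPM. The lowest Mmrn1-high library was thus more than 2-fold above the highest Mmrn1-low library. The rise was 3.12-fold, a log2 fold change of 1.64 ± 0.14 SE (edgeR adjusted p = 3.47e-05), and it was the largest of the 10. Its change was larger in size than that of 94.1% of all genes tested. In FPKM it went from 1.83 ± 0.287 to 6.30 ± 0.774 (SD, n = 3), which placed it at percentile 57.3 of genes tested in Mmrn1-high cells. The genes whose profile over the 6 libraries was nearest to that of Cdkn1a, by root mean square distance of centred log2 CPM, were Myo5c (0.058), Sult1a1 (0.069) and Spred3 (0.078). Their log2 fold changes were 1.69, 1.66 and 1.68, close to its own, as choosing genes by that distance requires.

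RefSeq (GRCm38.p6) gives Cdkn1a more than 1 start. The 250 bases before the upstream one are shown, because this gene had the largest rise and the window holds 2 matches to the half-site consensus of p53, in capitals (5′ to 3′, chr17:29090729-29090978, plus strand).
Cdkn1a: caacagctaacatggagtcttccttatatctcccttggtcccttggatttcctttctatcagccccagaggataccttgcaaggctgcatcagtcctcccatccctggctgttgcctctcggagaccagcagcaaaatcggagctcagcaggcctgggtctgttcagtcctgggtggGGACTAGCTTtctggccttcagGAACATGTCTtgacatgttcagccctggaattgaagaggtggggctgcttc
The matches lie 73 to 64 and 51 to 42 bases before the start. Of 32851 RefSeq windows of this length, 7.13% hold at least 1 such match on either strand and 0.259% hold at least 2. The window before the downstream start of Cdkn1a (chr17:29093519-29093768) holds none. A match is a run of letters, and no binding was measured. The counts are per gene and do not separate transcripts from the different starts.

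Cdkn1b encodes p27, which holds cells out of the cycle when growth signals are low. It lies on chromosome 6 from 134920401 to 134925513 (plus strand) and shares no exon base with another gene. Mmrn1-low replicates 1 to 3 were at 52.3, 36.7 and 32.9 CPM, and Mmrn1-high replicates 1 to 3 at 89.7, 62.1 and 90.9 CPM. The groups did not overlap, and the nearest libraries were Mmrn1-low replicate 1 and Mmrn1-high replicate 2. The rise was 1.99-fold (log2 fold change 0.99 ± 0.25 SE, edgeR adjusted p = 0.0211). The call was lost without Mmrn1-low replicate 2 (adjusted p = 0.0790) or 3 (0.0659) and without Mmrn1-high replicate 1 (0.0649) or 3 (0.0674), with fold changes of 0.86 to 0.93 there.

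Cdkn1c encodes p57, an imprinted inhibitor expressed from the maternal allele and linked to the rest of stem cells. It lies on chromosome 7 from 143458339 to 143461050 (minus strand). It was the scarcest of the 10, with 19, 20 and 39 counts in the Mmrn1-low and 58, 94 and 57 counts in the Mmrn1-high libraries. These correspond to 1.21, 1.48 and 1.36 CPM against 4.74, 2.90 and 3.82 CPM, and the groups did not overlap. The rise was 2.75-fold (log2 fold change 1.46 ± 0.23 SE, edgeR adjusted p = 7.09e-04). At 0.774 ± 0.189 FPKM in Mmrn1-high cells it was at percentile 14.8 of genes tested. Of its exon bases, 30.7% are shared with the antisense gene Gm44732, which had 0 to 6 counts per library. Libraries were made with a strand-marking kit, per the labels, but no source used here gives the strand setting of the counting.

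Of the INK4 family, Cdkn2c and Cdkn2d were expressed and Cdkn2a and Cdkn2b were not detected above a few counts. Cdkn2c encodes p18, an INK4 protein that limits the self-renewal of stem cells in mice. It stood at 40.2, 37.6 and 40.3 CPM in Mmrn1-low and 39.2, 38.2 and 37.9 CPM in Mmrn1-high replicates 1 to 3 (chromosome 4, 109660876 to 109667189). The values of the groups overlapped. The fold of Mmrn1-high over Mmrn1-low was 0.974, with a 95% interval of 0.895 to 1.06. Cdkn2d encodes p19 of the same family (chromosome 9, 21288410 to 21291407). Its Mmrn1-low libraries were at 42.6, 35.0 and 40.1 CPM and its Mmrn1-high libraries at 34.3, 40.2 and 39.1 CPM. These overlapped over nearly their whole range, and the fold was 0.967 with an interval of 0.838 to 1.12. Neither gene was called (edgeR adjusted p = 0.575 for Cdkn2c and 0.666 for Cdkn2d). Cdkn2a, whose locus encodes p16 and p19Arf, had 0 counts in all 6 libraries, which allows up to 0.0925 to 0.245 CPM per library (3 counts, counting error only). Cdkn2b, which encodes p15, had 3 counts in Mmrn1-low replicate 3 and 0 in the other libraries.

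Ccnd1 encodes cyclin D1, the D cyclin most often tied to growth factor and integrin signals. It lies on chromosome 7 from 144929931 to 144939925 (minus strand). Mmrn1-low libraries were at 12.4, 13.1 and 13.9 CPM and Mmrn1-high libraries at 33.8, 37.8 and 37.5 CPM. Both groups were tight and far apart, and among the 4 called genes this one had the smallest error. The rise was 2.77-fold (log2 fold change 1.47 ± 0.08 SE, edgeR adjusted p = 1.31e-06). Ccnd1 shares 1100 exon bases, 23.4% of its own, with LTO1 on the opposite strand. LTO1 had 103 to 348 counts per library and a log2 fold change of 0.04 (edgeR adjusted p = 0.861), and was not called.

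Ccnd2 encodes cyclin D2, which cytokine signals induce in blood progenitors and lymphocytes. It was the most abundant D cyclin in every library, at 23.6 to 24.6 FPKM in Mmrn1-low and 26.9 to 28.1 FPKM in Mmrn1-high cells (chromosome 6, 127125162 to 127152193). In TMM-scaled CPM the groups overlapped, at 308.1, 314.7 and 320.2 against 315.0, 330.5 and 320.4. The fold was 1.02 with a 95% interval of 0.976 to 1.07 (edgeR adjusted p = 0.349). With only genes of at least 5 CPM in 3 libraries, and TMM factors computed anew from those genes, Ccnd2 was called higher (0.08, edgeR adjusted p = 0.0319). Log2 changes of other genes also moved up in that fit: Cdk4 from 0.005 to 0.055, Cdk6 from −0.022 to 0.028 and Ccnd1 from 1.47 to 1.52. The Ccnd2 call is thus relative to the scaling. The FPKM values lack the composition correction, and in that unit the families with level CPM also sat higher in Mmrn1-high cells, INK4 by 1.08-fold and the kinases by 1.10-fold in their sums.

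Ccnd3 encodes cyclin D3, needed for the expansion of lymphoid and granulocytic precursors. It lies on chromosome 17 from 47505051 to 47599691 (plus strand). Mmrn1-low replicate 1 was at 162.8 CPM, while replicates 2 and 3 were at 37.6 and 42.2 CPM. Mmrn1-high libraries were at 48.1, 64.4 and 70.9 CPM, above 2 of the Mmrn1-low libraries and below the third. With all libraries the log2 fold change was −0.40 ± 0.70 SE (edgeR adjusted p = 0.665), with an interval of 0.207-fold to 2.79-fold. Without Mmrn1-low replicate 1 it turned to 0.62, and the gene was called higher (edgeR adjusted p = 0.0400). The direction of Ccnd3 therefore rests on 1 library. Of 10112 genes with a mean of at least 10 CPM, 37 (0.366%), Ccnd3 included, had a spread within Mmrn1-low of at least its 4.33-fold. Ccnd3 shares 361 exon bases (4.11%) with Bysl on the opposite strand. Bysl had 573 to 2288 counts per library and was lower in Mmrn1-high cells (−0.73, edgeR adjusted p = 2.36e-06). The profiles nearest to that of Ccnd3 were those of Zc3h11a (0.296), Stk38 (0.333) and Fen1 (0.340), at several times the distances found for Cdkn1a. Their log2 fold changes differed in sign and had wide errors: 0.37 ± 0.50, −0.36 ± 0.42 and −0.22 ± 0.52 SE.

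**Figure D2:**
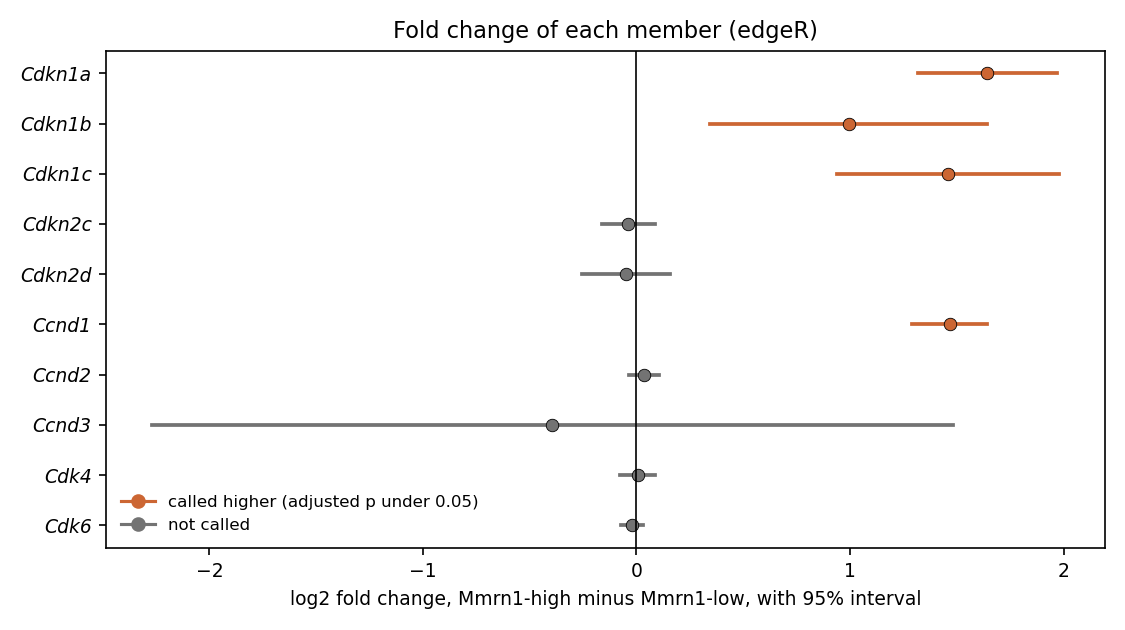
Log2 fold change of each gene, Mmrn1-high minus Mmrn1-low (points), with its 95% interval (lines), in orange where called and grey where not. The 4 called genes lie between 0.99 and 1.64, and 5 of the others within 0.05 of 0, with Ccnd3 at −0.40.

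Cdk6 and Cdk4 encode the catalytic partners of the D cyclins, and they were the most abundant of the 10 genes per length. Cdk6 was at 1293, 1309 and 1295 CPM in Mmrn1-low and 1268, 1289 and 1281 CPM in Mmrn1-high replicates 1 to 3 (chromosome 5, 3341485 to 3531008). Every Mmrn1-high library was below every Mmrn1-low library, but by little: the fold was 0.985 with a 95% interval of 0.951 to 1.02 (edgeR adjusted p = 0.415). Cdk4 was at 308.4, 294.7 and 284.5 CPM in Mmrn1-low and 295.8, 293.0 and 301.8 CPM in Mmrn1-high replicates (chromosome 10, 127063534 to 127067920). Its groups overlapped, and its fold was 1.004 with an interval of 0.949 to 1.06 (edgeR adjusted p = 0.912). Cdk4 shares 641 exon bases (19.7%) with Tspan31 on the opposite strand, which was lower in Mmrn1-high cells (−0.55, edgeR adjusted p = 1.80e-04).

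The 250 bases before the Cdk4 start are shown because Cdk4 was not called while all 10 proliferation genes fell, and because the window holds 4 copies of the E-box CACGTG, the site that Myc and related factors bind, in capitals (RefSeq, GRCm38.p6, 5′ to 3′, chr10:127063285-127063534, plus strand).
Cdk4: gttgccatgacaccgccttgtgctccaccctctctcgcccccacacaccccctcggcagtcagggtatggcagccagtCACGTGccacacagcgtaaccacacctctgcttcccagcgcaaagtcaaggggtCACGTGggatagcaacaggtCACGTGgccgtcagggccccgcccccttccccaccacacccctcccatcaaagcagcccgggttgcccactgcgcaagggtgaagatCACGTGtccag
Of 32851 windows, 6.02% hold at least 1 CACGTG and 7 windows (0.0213%) hold at least 4. The Cdk6 window (chr5:3343643-3343892) holds 1. The p53 half-site was also found once before Cdkn2d. Other motifs searched on both strands were GTAAACA for FoxO factors (in 3.17% of windows) and TTNNCGC for E2F factors (in 17.0%). No match tells of a site in use. GTAAACA was found before 1 of the Ccnd3 starts, and TTNNCGC before Cdkn2c, Cdk4, the downstream start of Cdkn1a and, in 2 copies, Cdk6. Windows were found for 7 of the 10 genes.

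Ordered by FPKM, Mmrn1-low cells had Cdk6 (71.9 ± 0.542), Cdk4 (43.9 ± 1.67), Ccnd2 (24.1 ± 0.526), Cdkn2c (13.2 ± 0.518), Cdkn2d (11.02 ± 1.07), Cdkn1b (5.08 ± 1.27), Ccnd3 (4.71 ± 4.12), Ccnd1 (2.22 ± 0.130), Cdkn1a (1.83 ± 0.287) and Cdkn1c (0.246 ± 0.0251). Within that order the libraries of Cdkn1b and Ccnd3, of Ccnd3 and Ccnd1, and of Ccnd1 and Cdkn1a overlapped. In Mmrn1-high cells the first 6 places were the same, with Cdkn1b (11.2 ± 2.28) now overlapping Cdkn2d (11.8 ± 0.936). Ccnd1 (6.82 ± 0.394) and Cdkn1a (6.30 ± 0.774) stood above Ccnd3 (3.95 ± 0.745), and their own libraries overlapped. The kinases were the highest per length in both groups, with Cdk4 less than 2-fold above Ccnd2, and the genes that rose came from the lower end of the order.

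Shares within a family do not depend on how libraries are scaled, but they do depend on whether genes are weighed per length. Ccnd1 made up 5.97%, 7.73% and 8.001% of the summed D cyclin FPKM in Mmrn1-low replicates 1 to 3 and 17.5%, 18.01% and 18.1% in Mmrn1-high replicates. The ranges did not overlap, and the difference was 10.6 percentage points (5.39 with CPM in place of FPKM). Ccnd2 held 67.1%, 84.6% and 83.6% against 73.9%, 71.4% and 70.1%, ranges that overlapped through the Mmrn1-low library with high Ccnd3. Among Cip/Kip genes, Cdkn1b held the largest share in every library, 69.1% to 73.4% in Mmrn1-low and 58.5% to 63.1% in Mmrn1-high cells. Cdkn1a held 25.7% ± 1.38 and 34.7% ± 2.77 (SD, n = 3), and the ranges of neither gene overlapped. Cdkn2c held 53.04% to 57.7% of INK4 and Cdk4 37.1% to 39.0% of the kinases over all 6 libraries, with groups that overlapped.

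**Figure D3:**
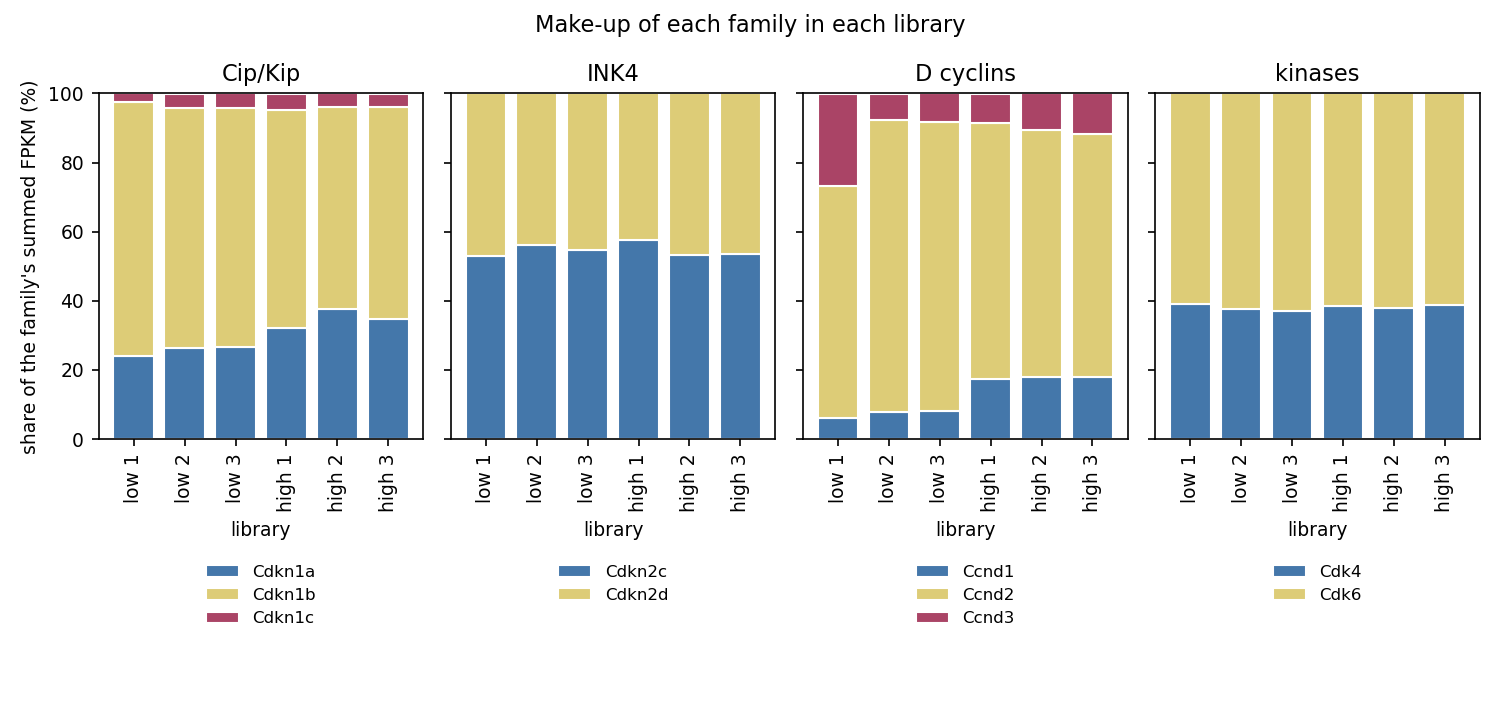
Share of each gene in its family's summed FPKM (vertical axis, percent) in each of the 6 libraries. Ccnd1 takes 17.5% to 18.1% of the D cyclins in Mmrn1-high against 5.97% to 8.001% in Mmrn1-low libraries, and the INK4 and kinase shares overlap between groups.

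The summed Cip/Kip FPKM, which lacks the composition correction, rose 2.56-fold, from 7.15 ± 1.54 to 18.3 ± 3.14 (SD, n = 3). In the same unit the sums of INK4, the D cyclins and the kinases rose 1.08-fold, 1.23-fold and 1.10-fold. The ratios of single families and of inhibitors to D cyclins were added after values had been seen. The log2 ratio of Cip/Kip to kinase FPKM was −3.72, −4.14 and −4.26 in Mmrn1-low and −2.68, −3.11 and −2.65 in Mmrn1-high replicates 1 to 3, with no overlap. For INK4 that ratio was −2.26 ± 0.0972 in Mmrn1-low and −2.29 ± 0.0355 in Mmrn1-high cells, with overlap. Inhibitors over D cyclins went from 0.02 ± 0.0509 to 0.22 ± 0.126, without overlap. All 5 inhibitors together over the kinases went from −1.89 ± 0.114 to −1.52 ± 0.0855, without overlap. With CPM in place of FPKM, which weighs long genes more, the difference in inhibitors over D cyclins was 0.54 in place of 0.20, and that in inhibitors over kinases 0.61 in place of 0.36. D cyclins over kinases stood at −1.91 ± 0.151 and −1.74 ± 0.0568, with overlap, a difference of 0.17 that was 0.07 in CPM. For each share or ratio without overlap, the exact two-sided permutation test gave p = 0.10, the smallest that 3 against 3 allows, and 0.217 after Benjamini-Hochberg adjustment over 13 such measures, so none could pass 0.05.

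Other genes of the G1/S pathway were mixed. Of 32 listed, 29 were tested, of which 8 rose and 12 fell in the Mmrn1-high group. Over all genes tested 30.7% and 30.5% did so. The median log2 fold change of the list was −0.10, against 0.01 over all genes tested. The balance depended on the scaling: 11 were called higher and 8 lower with library totals alone, and 10 higher and 8 lower in each limma fit on log2 FPKM. Calls over all genes tilted upward in the same settings. They were 6201 higher and 3193 lower with library totals alone, and 4748 to 5870 higher and 3011 to 3020 lower on log2 FPKM. These list counts thus say nothing particular about the pathway. The 10 E2F and DP factors split into 5 higher and 3 lower, led by E2f5 (0.82 ± 0.14 SE) and E2f8 (−0.63 ± 0.04 SE). E2f1 (0.33), E2f2 (0.38), E2f6 (0.23) and E2f7 (0.29) were also higher, and E2f3 (−0.12) and E2f4 (−0.36) also lower. Of the pocket proteins, Rbl2, which encodes p130 of resting cells, was higher (0.21 ± 0.05 SE), Rbl1, which encodes p107, was lower (−0.13 ± 0.03 SE, and 0.01 with library totals alone) and Rb1 was not called. Cyclin A2, the S phase partner of Cdk2, fell from 324.9 ± 15.9 to 164.5 ± 13.0 CPM (Ccna2, −0.98 ± 0.06 SE), and the phosphatase Cdc25a fell as well (−0.55 ± 0.05 SE). The E cyclins Ccne1 and Ccne2 and Cdk2 were not called. Of the kinase complex that activates CDKs, Cdk7 (−0.44 ± 0.06 SE) and Ccnh (−0.29 ± 0.08 SE) were lower. The call of Ccnh was lost with library totals alone (−0.14, edgeR adjusted p = 0.151) and on log2 FPKM (−0.14 to −0.13, limma adjusted p = 0.180 to 0.269). Among turnover genes, Cks1b, the cofactor by which Skp2 recognises p27, fell from 174.0 ± 0.456 to 97.6 ± 3.05 CPM (−0.83 ± 0.03 SE), and Fbxo4, a ligase subunit linked to cyclin D1, was higher (0.58 ± 0.12 SE). Skp2 itself had 2 to 10 counts per library and was not tested. Cdkn3, a phosphatase that acts on CDKs, fell from 20.1 ± 1.58 to 8.85 ± 0.310 CPM (−1.18 ± 0.09 SE), and Cdc37, the chaperone that loads Cdk4 onto Hsp90, was lower (−0.26 ± 0.03 SE).

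**Figure D4:**
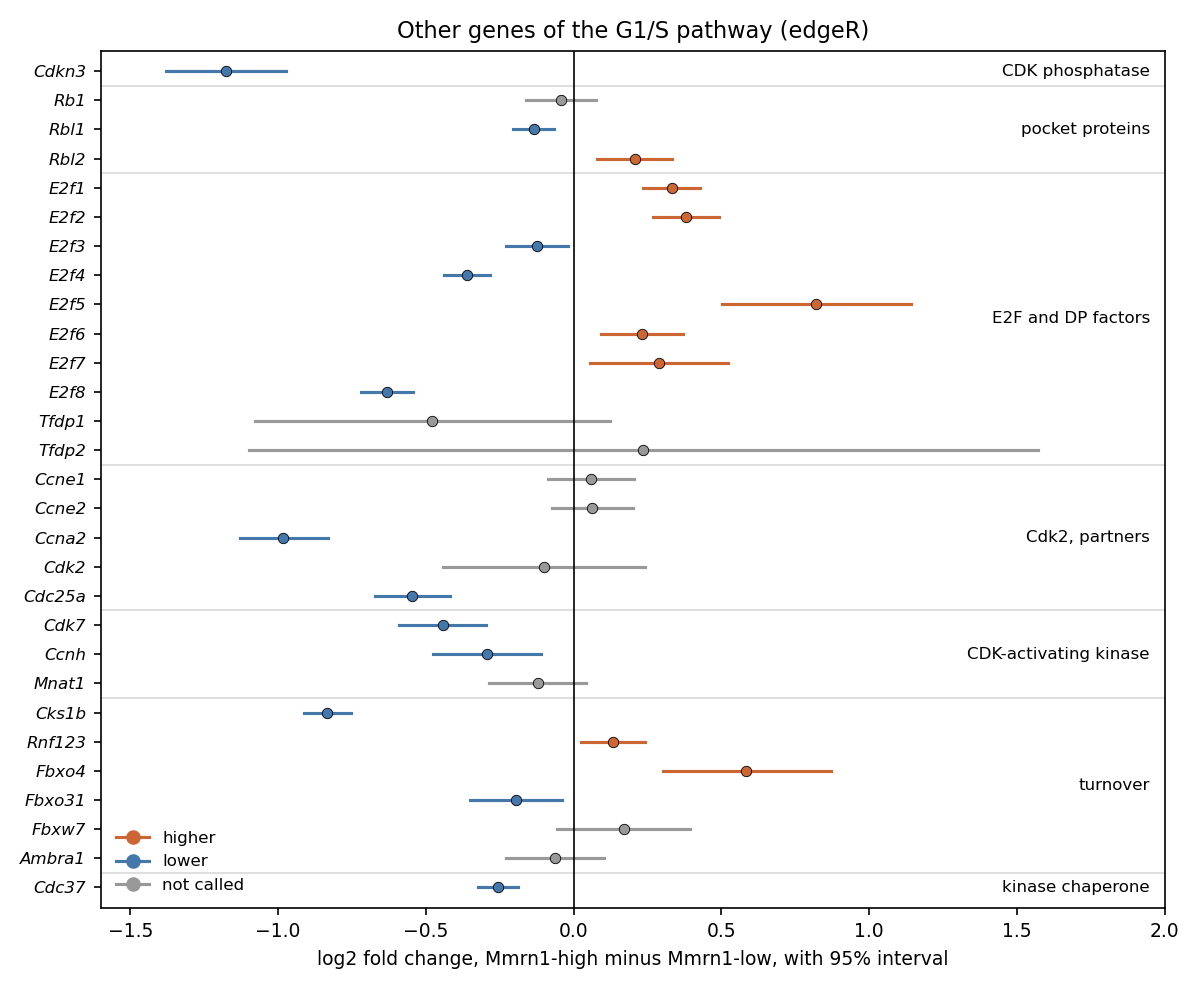
Log2 fold change of the 29 tested genes of the G1/S list, Mmrn1-high minus Mmrn1-low (points), with 95% intervals (lines), grouped by role and coloured by call. Cdkn3 (−1.18), Ccna2 (−0.98) and Cks1b (−0.83) lie lowest and E2f5 (0.82) highest.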

How the data were processed

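RNA-seq libraries of cells labelled Mmrn1-low (3) and Mmrn1-high (3) were used. The deposited table held raw counts and FPKM per gene, per the file headers. The build GRCm38 and the tools CASAVA 1.8, HISAT2, StringTie and edgeR appear, with no roles, per the submitters' processing notes. In the authors' FPKM, genes with at least 200 counts kept the ratio of count to library total within a relative deviation of 4.56e-06, so these values carry no composition correction. Counts were tested with edgeR 4.0.16 (R 4.3.3): TMM, filterByExpr, robust quasi-likelihood fit, group as the only term. Each SE was taken as log2 fold change over root F, and intervals are at 95%. Totals ran from 11595104 to 30909990, so 3 counts equal 0.0925 to 0.245 CPM. Annotation was GENCODE M21. The procedure was tested on simulated data with fewer changed genes and the same dispersion for every gene. That setting differs from these data, where 61.2% of genes tested were called. Tables and figures used Python 3.11.15, pandas 2.3.3, SciPy 1.17.1 and Matplotlib 3.10.9.

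The members and lists were chosen with earlier results of these data known. All 10 members were named. From the G1/S list, written from general knowledge, the 2 largest called changes of each role and untested genes were named by rule. The other called E2F factors and Rb1, Ccne1, Ccne2 and Cdk2, which were not called, were named besides. For the members with the highest and lowest fold change the 3 nearest profiles were named, passing over predicted models. Cip/Kip to kinases, INK4 to kinases and inhibitors to D cyclins were added after seeing the data. Alternatives were RLE factors, library size alone, no filter, 5 CPM in 3 libraries, DESeq2 1.42.0, limma 3.58.1 (voom with quality weights, or trend on log2 FPKM plus 1 or 0.1, filtered at 1 FPKM in 3 libraries or not), the replicate number as a block, an adjusted p under 0.01, a log2 change of at least 1, CPM for FPKM, and leaving out each library.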

Additional observations from a re-analysis of the deposited data

How the results depend on the processing

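Cdkn1a (1.37 to 1.79) and Ccnd1 (1.28 to 1.62) kept their direction and call in all 18 alternatives, and Cdkn1c (0.50 to 1.68) in the 15 that tested it. Cdkn1b kept its direction (0.86 to 1.22) and lost its call in 6: 4 left-out libraries, an adjusted p under 0.01 and a log2 change of at least 1. With library size alone, 7 members were called higher, against 40.2% of all genes, and Cdkn2c (0.11), Cdkn2d (0.099), Cdk6 (0.13) and Rbl1 (0.014) changed sign. The same genes changed sign with log2(FPKM + 1), filtered or not (0.105, 0.091, 0.124 and 0.0125), where Ccnd3 was at 0.011. Without the filter 7 members were called higher, beside 5870 calls higher and 3020 lower over all genes. Those 4 genes also changed sign with log2(FPKM + 0.1) (0.112, 0.098, 0.126 and 0.0131, with Ccnd3 at 0.063). These scales lack the TMM factors. The filter of 5 CPM gave 0.013 for Cdkn2c, 0.000544 for Cdkn2d and 0.028 for Cdk6, and called Ccnd2 higher (0.08). DESeq2 gave −0.010 for Cdk4, and voom 0.070 for Ccnd3. With a library left out, Cdkn2d ran from −0.123 to 0.029 (0.019 without Mmrn1-low replicate 1), Cdk4 from −0.014 to 0.044 (−0.0085 without Mmrn1-high replicate 3) and Ccnd3 from −0.73 to 0.62. The members called higher then ran from 3 to 5, and all genes called higher from 4399 to 4576. Apart from Ccnd3 without Mmrn1-low replicate 1 (0.62), values after a change of sign were at most 0.13. For the 5 CPM filter, DESeq2 and voom the cause was not tested.

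Over all genes, calls with log2(FPKM + 1) were 4770 higher and 3019 lower in Mmrn1-high, 5870 and 3020 unfiltered, and 4748 and 3011 with 0.1. A log2 change of at least 1 left 1736 higher and 756 lower. In the G1/S list, 11 were called higher and 8 lower with library size alone, and 10 and 8 on each FPKM scale. Calls higher numbered 5 with DESeq2, 4 at an adjusted p under 0.01 and 0 at a log2 change of at least 1, where 1 was lower (Cdkn3). Over all genes, DESeq2 called 4022 higher and an adjusted p under 0.01 left 3679 higher. CPM in place of FPKM changed the Ccnd1 share difference to 5.39 percentage points and the log2 differences of inhibitors to kinases to 0.61, of inhibitors to D cyclins to 0.54 and of D cyclins to kinases to 0.07, since long genes weigh more there. The replicate number as a block gave 8923 calls in place of 9438 and changed no member's call. The deviations of libraries with equal numbers correlated at 0.043, −0.079 and 0.029, and those with unequal numbers at −0.093 to 0.072. With 3 libraries per group, such values cannot tell whether equal numbers share a mouse or a sort. Counts under 100 per library limit Cdkn1c.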

Other observations

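Noncoding neighbours of the Cip/Kip genes were looked up after values had been seen. Lockd, a long noncoding RNA that starts downstream of Cdkn1b on the same strand (chromosome 6, 134929092 to 134956798), averaged 18.3 ± 0.845 CPM over Mmrn1-low libraries, against 16.2 ± 1.13 CPM over Mmrn1-high ones (SD, n = 3). Its log2 fold change was −0.17 ± 0.08 SE (edgeR adjusted p = 0.0953), while Cdkn1b stood at 0.99. Kcnq1ot1, the imprinted noncoding RNA of the domain that holds Cdkn1c (chromosome 7, 143203458 to 143296549), averaged 29.2 ± 1.61 and 31.4 ± 1.41 CPM in that order (0.11 ± 0.07 SE, edgeR adjusted p = 0.196), while Cdkn1c stood at 1.46. Neither neighbour was called, although for Lockd every Mmrn1-high library was below every Mmrn1-low library. The groups overlapped for Kcnq1ot1.

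Among 10112 genes with a mean of at least 10 CPM, 210 (2.08%) had, in at least 1 group, a library more than 2-fold from the nearer of the other two while those lay within 0.5 on the log2 scale of each other. Ccnd3 was 1 of them.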
